A study of Zea mays with 18 samples.

Results

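The genes described here are 193 of the 39475 maize gene IDs counted in the series. They were chosen for transcripts more abundant in the zygote shortly before its first division than in the egg cell or the young zygote. A member had a mean of at least 10 CPM in zygotes at 24 h and at least 3 times its mean at 12 h, where CPM is the count of a gene divided by the library total, times 1e6. Its egg mean had to be at least 0.1 CPM and at most 2 times the 12 h mean. These limits left 197 genes, fewer than the 200 that the rule would have kept by rank, and 4 listed genes were then set aside: the cyclin gene cyc1 and the kinesin genes KIN6, KIN13 and kin11. The levels in egg, 12 h and 24 h libraries therefore chose the members, and are given below as a description with no test. Sperm, apical and basal libraries had no part in the choice.

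The study sequenced polyadenylated RNA of isolated cells of maize (Zea mays), inbred strain B73, from wild-type plants that were untreated and kept in a growth chamber. It followed reproduction from the gametes to the 2-celled embryo in 6 groups of 3 libraries each. The groups were sperm cells (1000 cells per library), egg cells (20 cells), zygotes at 12 h (14 to 15 cells) and at 24 h (16 to 17 cells), apical cells (16 cells) and basal cells (13 to 14 cells). The labels give the times as hap, read here as hours after pollination. All 18 libraries shared manual dissection and PCR amplification of cDNA from very little RNA. Nothing in the labels states that the replicates of a group are different plants. The p-values below therefore refer to the spread among these libraries alone, and that spread may be technical.

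After fertilisation, the zygote starts transcription from its own genome while RNA inherited from the egg is still present. It then copies its DNA, builds a spindle of microtubules and divides asymmetrically into a small apical cell, which gives rise to the embryo proper, and a larger basal cell, which contributes to the suspensor. Genes needed at particular steps of the cell cycle are often transcribed in pulses: histone genes are known for a peak at DNA replication, and genes for mitotic cyclins, motor proteins and spindle checkpoint proteins for a peak before and during mitosis.

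Library totals ranged from 11128444 to 25771168 counts. The marker lists followed the labels in part. The only sperm marker found, hap2, stood at 294 to 418 CPM in sperm and at most 10.5 CPM in any other library. The 5 egg and embryo sac markers summed to 529 to 5019 CPM in egg and 2444 to 2964 CPM at 12 h. They summed to 856 to 2218 CPM at 24 h and 62.7 to 234 CPM in daughter cells. The 30 endosperm markers summed to 237 to 291 CPM at 12 h and 260 to 335 CPM at 24 h. Most of this came from mez1 (means 73.9 and 123 CPM) and the ae1 gene ID GRMZM2G032628 (144 and 130 CPM). Of the 30 markers, 20 and 9 were at 0 counts in every library of the group. The low number at 24 h came from the third library, with 9 at 0 counts, compared with 23 and 24 in the first and second. The third basal library likewise had 7 at 0 counts, compared with 24 in each of the others. The 16 photosynthetic markers summed to 30.2 to 67.6 CPM at 12 h and 34.1 to 54.1 CPM at 24 h. Whether RNA of other cells had a part in the results was not tested. Among genes with at least 10 CPM at 24 h, the first egg library stood over 2-fold above both other egg libraries in 21.4%.

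Members took 0.327% to 0.364% of all counts at 12 h and 1.81% to 2.11% at 24 h. Their summed level was 1793 ± 169 CPM in egg, 3406 ± 202 CPM at 12 h and 19977 ± 1666 CPM at 24 h (SD, n = 3 each). In bulk libraries of this kind, fewer cells with a transcript and less of it per cell cannot be told apart. The median of the members' means was 2.98 CPM in egg, 9.56 CPM at 12 h and 64.2 CPM at 24 h. The ratio of the 24 h mean to the 12 h mean ran from 3.003 to 257 with a median of 5.47, and 49 members reached a ratio of at least 10. In 188 of the 193, each 24 h library exceeded every egg and 12 h library, compared with 5.70% of the 23806 genes passing the filter on low counts; the rule used this contrast, so nothing is read from that share.

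Between egg and 12 h the members were not alike. The 12 h mean was at least 2 times the egg mean in 111 of them and under the egg mean in 42. At the limits of the choice, GRMZM2G175504 stood just inside at 10.3 CPM at 24 h and GRMZM2G046317 just outside at 9.58 CPM. GRMZM2G128938 was just inside at 3.003 times its 12 h mean and GRMZM2G084195 just outside at 2.995 times. At the lower egg limit, GRMZM2G417410 was just inside at 0.103 CPM and GRMZM2G448883 just outside at 0.0907 CPM. At the upper egg limit, GRMZM2G137009 was inside with an egg mean 1.997 times its 12 h mean, while the cyclin gene cyclin4 (GRMZM2G310115) stayed out at 2.16 times.

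The relative spread of members over replicates was smaller at 24 h than earlier. The rule chose members for levels in egg and at 12 h below those at 24 h, and counting error weighs more at lower levels. This order is therefore not read as better agreement of the 24 h libraries. The median coefficient of variation of a member over the 3 libraries was 0.803 in egg, 0.422 at 12 h, 0.228 at 24 h, 0.286 in apical cells and 0.191 in basal cells. At 24 h a single member, GRMZM2G147399, had a coefficient of variation over 1: it stood at 90.8, 6.71 and 6.88 CPM in the 3 libraries, so its place in the set rests on the first of them.

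**Figure D1:**
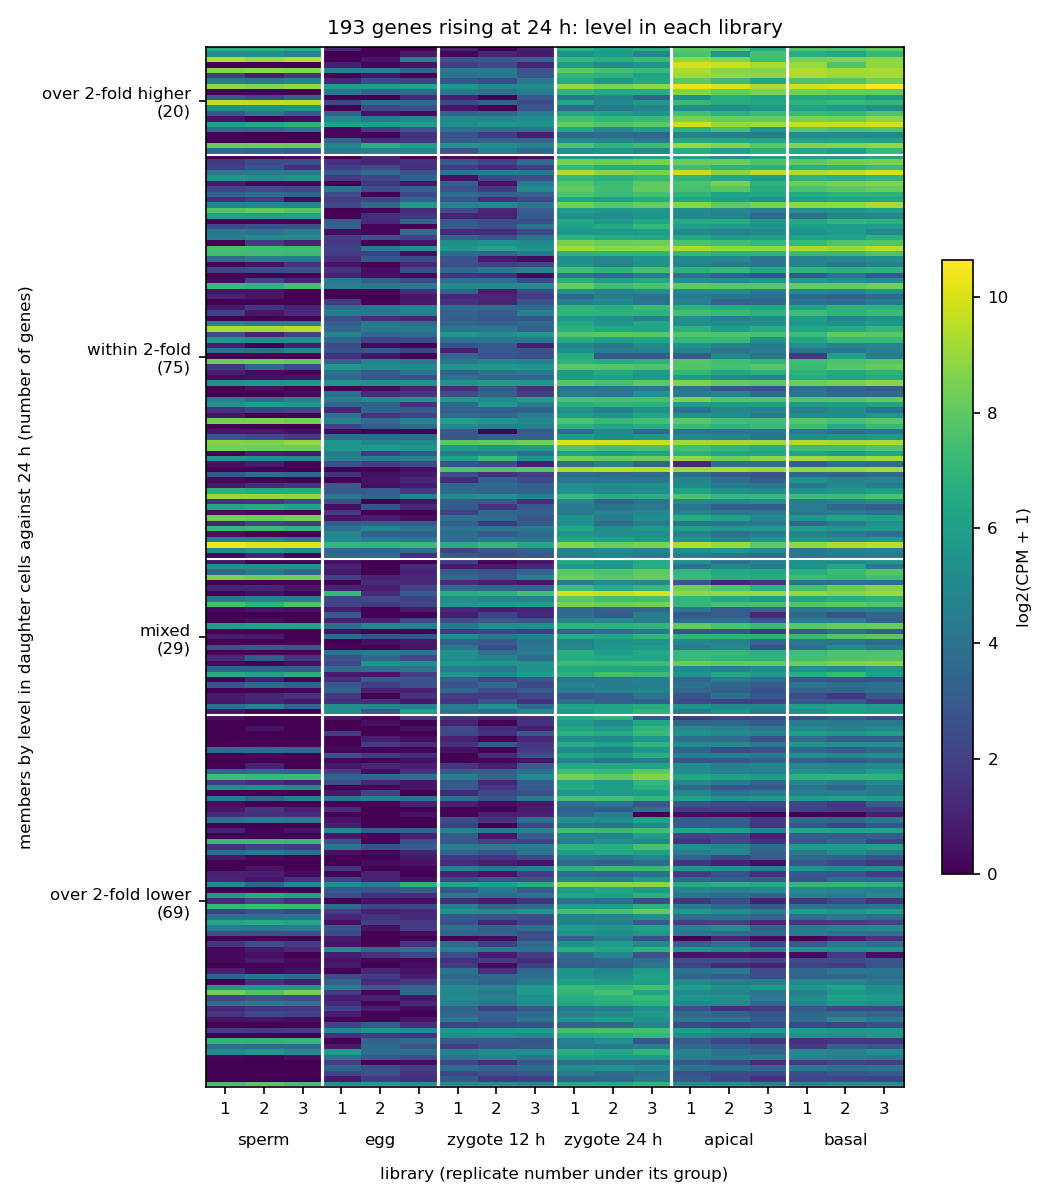
Level of each of the 193 members (rows) in each of the 18 libraries (columns), as log2(CPM + 1), with rows ordered by how the daughter cells compare with the 24 h zygote. Rows are dark in egg, lighter from 12 h to 24 h, and after the division they part into 20 genes over 2-fold higher than at 24 h in both daughter cells, 75 within 2-fold, 29 mixed and 69 over 2-fold lower.

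A reference table of maize genes matched 135 of the members and gave an informative name to 14 of them; the other 179 are known here by ID alone. Of the matched members, 9 fell on several reference genes, so their identity is uncertain. Among these only GRMZM2G158526 is given a possible name, picked because its pair of reference genes includes cenH3. In 10 members a matched reference gene was shared with other gene IDs. The 14 named members group into cell cycle control, microtubules and their motors, histones and chromatin, and a transcription factor.

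The spindle checkpoint gene mad2 (GRMZM2G047143), whose product holds back chromosome separation until the spindle is attached, stood at 130, 127 and 151 CPM in egg and at 96.4, 137 and 85.0 CPM at 12 h. At 24 h it was at 409, 296 and 364 CPM, 3.36 times the 12 h mean. It stayed high after division, at 654, 521 and 253 CPM in apical cells and 463, 616 and 745 CPM in basal cells. The groups of egg and 12 h overlapped, the 24 h libraries all lay above both, and the third apical library fell below every 24 h library.

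cycD4 (GRMZM2G133413), a D-type cyclin of the class that acts at entry into the cell cycle, had a transient course. It was at 5.02, 1.15 and 3.41 CPM at 12 h, at 27.0, 23.3 and 6.88 CPM at 24 h, and between 1.21 and 3.35 CPM in all 6 daughter cell libraries. Every 24 h library lay above every daughter cell library, but the third 24 h library lay far below the other two.

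Among the β-tubulin genes, which encode a subunit of microtubules, 3 were members and they parted ways after division. GRMZM2G133802, which carries the names tub5 and tub8, stood at 50.7, 72.3 and 44.6 CPM at 12 h, at 557, 429 and 448 CPM at 24 h, at 624, 460 and 442 CPM in apical cells and at 611, 521 and 699 CPM in basal cells. tub6 (GRMZM2G071790) went from 69.5, 157 and 43.0 CPM to 334, 270 and 297 CPM at 24 h, and was at 296 to 459 CPM in apical cells and 468 to 538 CPM in basal cells. The apical and basal libraries of GRMZM2G133802 overlapped those at 24 h. The level of tub6 was 1.33 times the 24 h mean in apical cells and 1.71 times in basal cells, where every library lay above every 24 h library. TUB1 (GRMZM2G164696) reached 423, 426 and 465 CPM at 24 h from 81.1, 63.7 and 101 CPM at 12 h, then stood at 92.0, 106 and 90.3 CPM in apical cells and 127, 125 and 109 CPM in basal cells. Its daughter cell libraries did not overlap those at 24 h, whose mean was 4.56 times the apical and 3.64 times the basal mean. β-tubulin genes are similar in sequence, and no source used here tells how reads shared by several genes were counted, so the split between them is uncertain.

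Of the kinesin genes, which encode motors that move along microtubules, kin2 (GRMZM2G136838) was at 0, 0.504 and 25 CPM in egg, 5.75, 7.79 and 9.08 CPM at 12 h and 134, 112 and 144 CPM at 24 h. In the daughter cells it was higher still, at 457, 367 and 166 CPM in apical cells and 343, 383 and 457 CPM in basal cells, with every library above every 24 h library. KIN8 (GRMZM2G132371) was at 11.4, 11.1 and 19.9 CPM at 12 h and at 114, 120 and 120 CPM at 24 h. In apical cells it was at 131, 115 and 116 CPM, which overlaps the 24 h libraries, and in basal cells at 141, 149 and 208 CPM, all above them and 1.4 times the 24 h mean.

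All 3 histone genes among the members were lower after division. GRMZM2G401581, matched to an H3 histone (H3C2, H3C3 and H3C4), stood at 42.8, 58.0 and 32.9 CPM at 24 h, between 4.22 and 15.1 CPM in apical cells and between 6.99 and 19.9 CPM in basal cells. The H2B gene his2b2 (GRMZM2G119071) went from 125, 169 and 75.8 CPM to 31.6, 27.6 and 16.9 CPM in apical cells and 22.1, 46.7 and 39.2 CPM in basal cells. The linker histone gene his1 (GRMZM2G003002) went from 13.3, 26.3 and 5.29 CPM to at most 0.605 CPM in the apical libraries and at most 2.44 CPM in the basal ones. In each of the 3 the daughter cell libraries lay below all 24 h libraries, and the third 24 h library was the lowest of its group. Histone genes form families of near-identical copies, so single genes are uncertain here too.

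**Figure D2:**
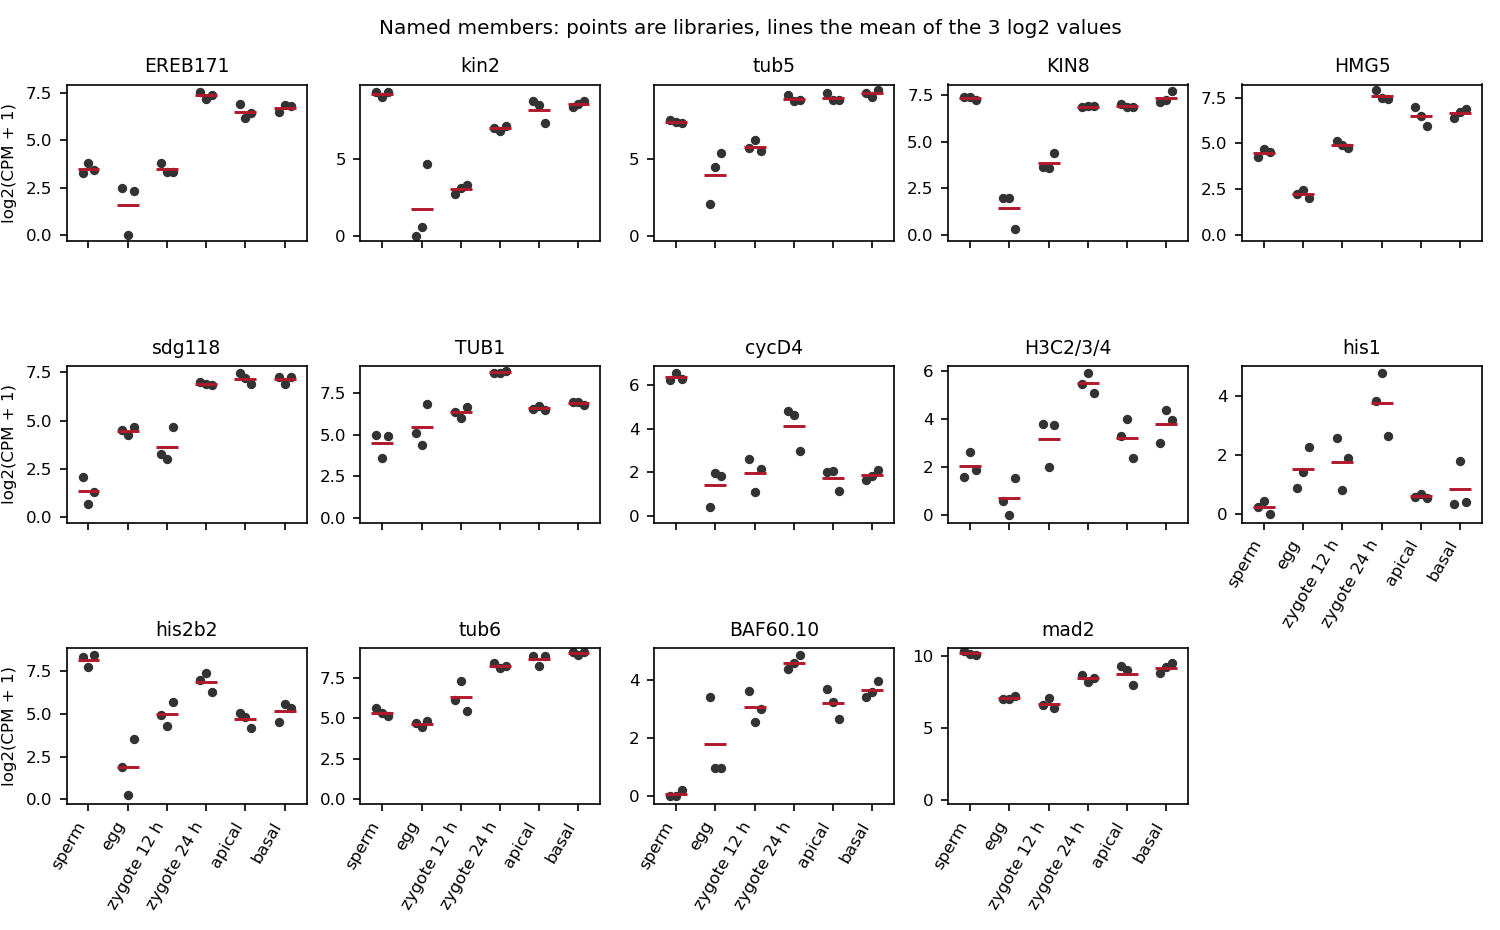
Level of the 14 named members in each library, as log2(CPM + 1) on axes that start at 0 but differ in their upper end; points are libraries and red lines the mean of the 3 log2 values. The 3 histone genes, TUB1 and cycD4 peak at 24 h among the egg, zygote and daughter cell groups, while the daughter cell means of tub5, tub6, KIN8, mad2 and sdg118 stay within 2-fold of 24 h, and the basal libraries of tub6, KIN8 and mad2 all lie above those at 24 h.

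Chromatin genes made up most of the rest. sdg118 (GRMZM2G054380), of the SET domain family whose members methylate histones, was at 8.48, 7.08 and 24.1 CPM at 12 h and 129, 118 and 115 CPM at 24 h, and stayed between 116 and 177 CPM in the daughter cells. HMG5 (GRMZM2G060253), a high mobility group protein of the kind that binds and bends DNA, stood at 242, 176 and 169 CPM at 24 h and between 61.5 and 126 CPM in the daughter cells. BAF60.10 (GRMZM2G143788), named for a subunit of chromatin remodelling complexes, had the smallest ratio among the named genes, from 11.2, 4.83 and 7.01 CPM at 12 h to 19.6, 23.0 and 28 CPM. The gene with the cenH3 match, GRMZM2G158526, was at 15.2, 15.4 and 17.0 CPM at 12 h, 96.4, 64.8 and 82.9 CPM at 24 h, 132, 135 and 43.3 CPM in apical cells and 80.4, 136 and 141 CPM in basal cells; cenH3 is the histone that marks the centromere.

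EREB171 (GRMZM2G013657), of the AP2/EREBP family of transcription factors, was the named member ranked highest by the rule. It stood at 12.8, 9.06 and 9.17 CPM at 12 h and at 189, 143 and 170 CPM at 24 h, 16.2 times as high. The daughter cell libraries lay between 71.7 and 120 CPM, all below those at 24 h.

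Members without a name led the ranking. GRMZM2G005619, the first, was at 0.885, 0.0549 and 0.899 CPM at 12 h and at 111, 69.8 and 99.6 CPM at 24 h. It was at 242, 241 and 96.2 CPM in apical cells and 202, 201 and 253 CPM in basal cells, with the third apical library alone inside the 24 h range. GRMZM2G301194 had the widest ratio, 257 times the 12 h mean: it was at 0.221, 0 and 0.449 CPM at 12 h, 57.1, 47.6 and 67.6 CPM at 24 h, and 38.8 to 79.6 CPM in the daughter cells. GRMZM2G030284, the third, was at 7.15, 3.35 and 11.5 CPM at 12 h, 354, 301 and 350 CPM at 24 h and 202 to 349 CPM in the daughter cells. GRMZM2G480480 went from 2.95, 1.43 and 2.88 CPM to 138, 98.6 and 100 CPM and was then at 114 to 167 CPM. The daughter cell means of these last 3 genes stayed within 2-fold of the 24 h mean.

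The rest of the 10 highest-ranked members were lower in at least one daughter cell. GRMZM2G115499, GRMZM2G400223 and GRMZM2G009913 were over 2-fold lower than at 24 h in apical cells only, on the scale of CPM + 1. GRMZM2G000825 was at 52.9, 32.1 and 79.6 CPM at 24 h, 10.2, 10.9 and 7.68 CPM in apical cells and 20.3, 18.1 and 18.6 CPM in basal cells. GRMZM2G332703 was at 77.3, 57.9 and 126 CPM at 24 h and 17.2 to 31.6 CPM in the daughter cells. GRMZM2G109738 was at 91.8, 120 and 6.22 CPM at 24 h and 2.44 to 7.66 CPM in the daughter cells, so the third 24 h library lay inside the daughter cells' range and the other two far above it.

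Neither daughter cell group entered the choice of members, but a gene chosen for a high 24 h value is likely to be lower in any other group, so the levels after division are described with no test. The median difference of a member from 24 h, on the log2(CPM + 1) scale, was -0.87 in apical and -0.62 in basal cells. For the 12609 genes with at least 10 CPM at 24 h the medians were -0.44 and -0.43. TMM factors, which centre the bulk of genes, moved those medians of all such genes to 0.03 and -0.04 and the members' medians to -0.42 and -0.22. The members' median minus that of all such genes was thus -0.44 in apical and -0.19 in basal cells, and -0.45 and -0.18 with TMM factors.

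Libraries of the groups did not overlap in 102 members that were lower in apical cells than at 24 h, compared with 38.2% of all tested genes, and in 25 that were higher, compared with 16.7%. In basal cells 94 members were lower without overlap, compared with 37.4% of genes, and 40 were higher, compared with 17.5%. As shares of the 193 members these are 52.8%, 13.0%, 48.7% and 20.7%. Both daughter means were above the 12 h mean in 168 members (87.0%, compared with 33.6% of genes with at least 10 CPM at 24 h), over 10 times that mean in 38 and at no more than 2 times that mean in 42. The rule chose members for a 12 h value low relative to 24 h, so nothing is read from these counts.

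By mean level, 75 members stayed within 2-fold of 24 h in both daughter cells (38.9%, compared with 52.0% of genes with at least 10 CPM at 24 h). In 69 both daughter cells were over 2-fold lower (35.8%, compared with 24.6%), in 20 both were over 2-fold higher (10.4%, compared with 7.23%), and 29 were mixed. With TMM factors the first 3 numbers were 90, 37 and 28. Leaving out the first apical library took the number over 2-fold higher in both from 20 to 12. Leaving out sperm, the highest group was 24 h for 132 members (68.4%), basal cells for 46 (23.8%) and apical cells for 15 (7.77%). Among genes with at least 10 CPM at 24 h the shares were 22.1%, 11.2% and 16.5%, but these can also peak in egg or at 12 h, which the rule bars for members.

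**Figure D3:**
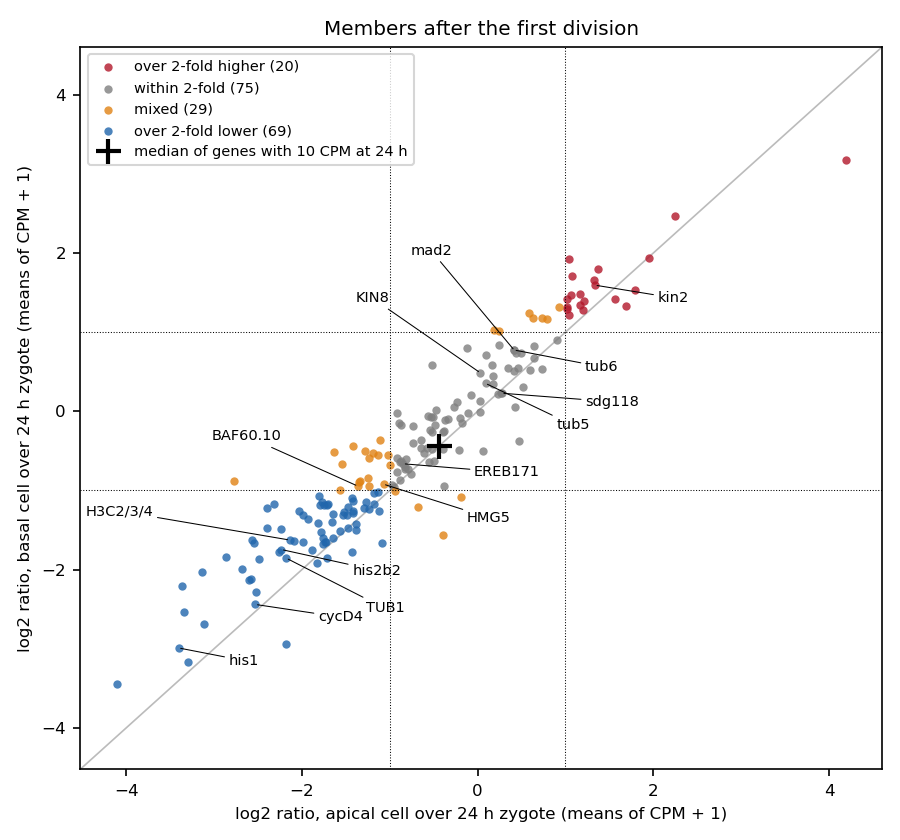
Each point is a member, placed by the log2 ratio of the apical mean (horizontal) and of the basal mean (vertical) to the 24 h mean of CPM + 1; dotted lines mark 2-fold and the cross the median of the 12609 genes with at least 10 CPM at 24 h. Points follow the diagonal, from his1 at the lower left to kin2 and unnamed genes at the upper right, and more of them lie above the diagonal (higher in basal cells) than below it.

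GRMZM2G458401 had the highest daughter cell level relative to 24 h. It was at 50.8, 32 and 45.8 CPM at 24 h, at 970, 845 and 583 CPM in apical cells and at 503, 209 and 474 CPM in basal cells, 18.6 and 9.21 times the 24 h mean. GRMZM2G361423 was at 123, 113 and 73.7 CPM at 24 h, 464 to 537 CPM in apical cells and 521 to 625 CPM in basal cells. GRMZM2G165755 was 4.01 times higher in apical and 3.99 times higher in basal cells than at 24 h, and GRMZM2G430680 3.49 and 2.90 times. In all 4 genes every daughter cell library exceeded every 24 h library.

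At the other end, GRMZM2G114232 stood at 11.3, 21.6 and 0 CPM at 24 h and at no more than 0.934 CPM in any daughter cell library. GRMZM2G087875 was at 8.48, 21.1 and 5.01 CPM at 24 h and at no more than 2.09 CPM afterwards. With GRMZM2G109738 and his1, these were the 4 members with the lowest daughter cell level relative to 24 h, and in each of the 4 the third 24 h library was the lowest. Among all members that library stood over 2-fold below both others in 6 (3.11%), compared with 2.93% of genes with at least 10 CPM at 24 h.

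Apical and basal cells were compared to ask whether the daughters of the first division inherit or make these transcripts unequally. No member differed between them at a Benjamini-Hochberg adjusted p under 0.05 in edgeR's quasi-likelihood test, and neither did any of the 23806 genes tested (0% called). At an unadjusted p under 0.05 there were 10 members, 7 of them lower and 3 higher in apical cells, compared with 5.32% of all genes. With only the compared groups in the fit there were 31 (28 lower and 3 higher, compared with 8.64% of genes), and without single libraries 4 to 13: 4 without the second apical or without the third basal library, and 5 without the third apical library. DESeq2 called 76 genes, of which 0 were members.

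The smallest p among members was that of GRMZM2G019866, at 57.2, 29.7 and 27.1 CPM in apical cells and 90.0, 68.3 and 91.2 CPM in basal cells. Its log2 fold change, apical minus basal, was -1.07 ± 0.33 (SE), with an unadjusted p of 0.0054 and an adjusted p of 0.847 in edgeR. The groups did not overlap, as in GRMZM2G002830 (38, 27.3 and 11.8 CPM in apical cells, 51.2, 56.3 and 66.8 CPM in basal cells) and GRMZM2G408359 (29.7, 26.5 and 16.5 CPM against 36.6, 48.6 and 52.4 CPM). GRMZM2G028159 lay the other way, at 37.9, 44.3 and 33.5 CPM in apical cells and 16.0, 22.5 and 24.2 CPM in basal cells. The adjusted p of these 3 genes ranged from 0.886 to 0.916, so none of the differences passed the test.

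As a set, more members were lower in apical than in basal cells. The fitted log2 fold change was below 0 in 149 of the 193, compared with 47.1% of all tested genes, and its median was -0.21, compared with 0.03. Without overlap of libraries, 35 members were lower in apical cells (18.1%, compared with 9.81% of genes) and 4 were higher (2.07%, compared with 5.26%). By level after division, 53 of the 75 members within 2-fold of 24 h were lower in apical cells. So were 56 of the 69 over 2-fold lower, 15 of the 20 over 2-fold higher and 25 of the 29 mixed. These groups were formed from the same apical and basal means, so nothing is read from the split.

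The third apical library stood out among these genes. It was over 2-fold below both other apical libraries in 24 members (12.4%), compared with 2.41% of genes with at least 10 CPM at 24 h. Summed member levels were 22060 CPM in the highest and 15293 CPM in the lowest apical library, the third, and 19968 to 24290 CPM in basal cells. Without that library, 129 members were lower in apical cells and the median was -0.14. Markers of other cells were uneven as well: the 6 pollen markers summed to 70.2 CPM in the first apical library, 1.53 to 3.63 CPM in the others and 3.69 to 7.86 CPM in basal cells. The 16 photosynthetic markers summed to 106 CPM in the second apical library and 10.96 and 17.7 CPM in the others. In basal cells they summed to 10.9 to 25.3 CPM. The 30 endosperm markers summed to 343 to 400 CPM in apical and 301 to 388 CPM in basal cells. Most of that came from mez1 (means 241 and 211 CPM) and the ae1 gene ID GRMZM2G032628 (107 and 97.4 CPM). Without the first apical library 164 members were lower in apical cells, and without the second 130. Leaving out any one library of either group gave 127 to 164 members and medians from -0.37 to -0.12, so the size of the shift depended on the libraries used but its sign did not. These fits reuse the same libraries, and members share them and are not independent, so the shift is a description with no test. By library the groups overlapped: the first apical library, at 22060 CPM summed over members, lay above the first and second basal libraries, at 19968 and 20750 CPM.

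**Figure D4:**
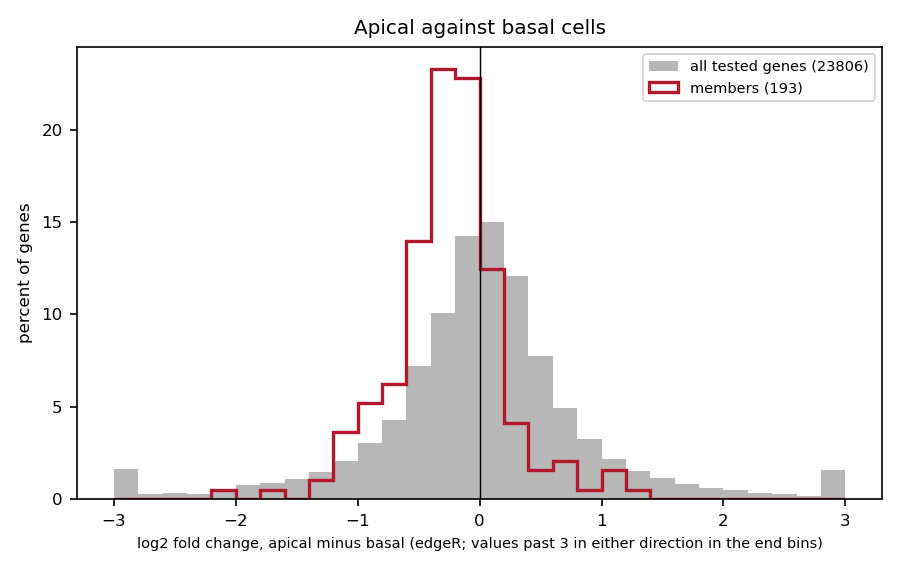
Share of genes, in percent, by log2 fold change of apical minus basal cells for the 193 members (red line) and all 23806 tested genes (grey), with values past 3 in the end bins. The members' curve is shifted to the left, with a median of -0.21 compared with 0.03, and no single gene passed the test.

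The 6 pollen markers summed to 271 to 307 CPM in the sperm libraries and to at most 70.2 CPM in any other library. Whether RNA of other pollen cells had a part in the sperm levels was not tested. Sperm libraries lay outside the zygotic course, and the members' level there spread widely. Their median was 2.71 CPM, and 75 members were at 10 CPM or more (38.9%, compared with 41.7% of the 12609 genes with at least 10 CPM at 24 h). Another 80 were under 1 CPM (41.5%, compared with 30.4%), and 25 had 0 counts in all 3 libraries (13.0%, compared with 5.70%). In 28 members the sperm mean exceeded the 24 h mean (14.5%, compared with 21.1%). Compared with the mean of apical and basal cells in edgeR's test over 18 libraries, 40 members were higher in sperm (27.2% of all tested genes were) and 119 lower (45.0% of all genes). The median log2 fold change was -2.59 for members and -1.34 for all genes; with library size alone as the scale it was -2.36 for all genes, and 23 members were called higher and 137 lower.

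mad2 had the highest CPM in sperm of all members, at 1327, 1125 and 1117 CPM, a rank that gene length also sets. It was higher there than in the daughter cells by 2.24 ± 0.25 on the log2 scale (adjusted p = 6.1e-07, edgeR). The unnamed GRMZM2G032209 was at 757, 755 and 774 CPM in sperm and 87.6 to 146 CPM in daughter cells, a log2 difference of 3.73 ± 0.39 (adjusted p = 2.61e-07, edgeR). GRMZM2G334857 and GRMZM2G107645 were higher in sperm by 3.87 ± 0.31 and 2.67 ± 0.26. In all 4 genes the sperm libraries lay above every other library.

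Genes of the cell cycle and of histones were among those higher in sperm. cycD4 stood at 74.3, 92.0 and 75.3 CPM in sperm, above its 24 h libraries, and exceeded the daughter cells by 6.05 ± 0.58 (adjusted p = 8.71e-08, edgeR). his2b2 was at 326, 215 and 347 CPM and exceeded them by 4.39 ± 0.61 (adjusted p = 6.26e-06, edgeR). The other histone members did not pass the test: the H3 gene GRMZM2G401581 was at 1.99, 5.20 and 2.63 CPM and his1 at 0.157, 0.360 and 0 CPM in sperm.

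Microtubule genes went both ways. KIN8 was at 167, 167 and 152 CPM in sperm and higher than in daughter cells by 1.27 ± 0.38 (adjusted p = 0.00609, edgeR), but with library size alone as the scale the difference was 0.20 and did not pass. kin2 was at 683, 532 and 674 CPM in sperm, a difference of 1.90 ± 0.80 (adjusted p = 0.0413, edgeR). That call was lost without any one of the sperm or basal libraries, without the second apical library and without the third (adjusted p from 0.0601 to 0.0994), with the replicate block (1.85, adjusted p = 0.0523), with no filter on low counts (1.89, adjusted p = 0.0789) and with library size alone as the scale (0.80, adjusted p = 0.355). tub6 was at 47.4, 39.0 and 33.4 CPM and lower than in daughter cells by -2.43 ± 0.36 (adjusted p = 1.47e-05, edgeR). TUB1 was lower by -1.08 ± 0.45 (adjusted p = 0.0411, edgeR), with 30.7, 11.1 and 29.4 CPM, and lost the call when any one apical library, the second sperm library, the third sperm library, the first basal library or the second basal library was left out (adjusted p from 0.0502 to 0.186). It was also lost with RLE size factors (-0.80, adjusted p = 0.112), with upper-quartile scaling (-0.57, adjusted p = 0.24) and in DESeq2 (-0.80, adjusted p = 0.101). GRMZM2G133802 was at 182, 166 and 161 CPM in sperm and did not pass the test at -0.64 ± 0.49 (adjusted p = 0.246, edgeR), but passed with library size alone, at -1.72, and with only the compared groups in the fit, at -0.72.

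The chromatin genes sdg118, HMG5 and BAF60.10 and the transcription factor were lower in sperm. sdg118 was at 3.14, 0.560 and 1.43 CPM there, a difference of -5.30 ± 0.57 (adjusted p = 3.73e-07, edgeR). HMG5 was at 18.1, 25.3 and 22.1 CPM, a difference of -1.08 ± 0.26 (adjusted p = 0.00117, edgeR), but with upper-quartile scaling the difference was -0.60 and did not pass (adjusted p = 0.0526). EREB171 was at 8.75, 13.0 and 9.68 CPM, a difference of -2.17 ± 0.62 (adjusted p = 0.00477, edgeR). The gene with the cenH3 match, GRMZM2G158526, had a sperm mean of 42.1 CPM. It did not pass the test, at -0.29 ± 0.31 (adjusted p = 0.413, edgeR). BAF60.10 had 3 counts over the 3 sperm libraries, and its pooled level in daughter cells was 223 times as high (exact 95% counting interval 76.1 to 1082, which covers counting error only).

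Some of the leading unnamed members were at or near 0 in sperm. GRMZM2G000825 had 0 counts there and was at least 308-fold higher in the daughter cells, with the 3 sperm libraries together set at a floor of 3 counts. GRMZM2G030284 was at 2.46, 4.60 and 5.04 CPM, lower than in daughter cells by -5.06 ± 0.38 (adjusted p = 5.2e-09, edgeR). GRMZM2G480480 was lower by -4.12 ± 0.45 (adjusted p = 4.14e-07, edgeR). GRMZM2G458401 had a single count over the 3 sperm libraries and at least 209 CPM in every daughter cell library. In contrast, GRMZM2G005619 stood at 108, 111 and 94.2 CPM in sperm.

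The level in sperm varied with the course after division only loosely. Of the 20 members over 2-fold higher in both daughter cells, 12 were at 10 CPM or more in sperm, as were 33 of the 75 within 2-fold, 8 of the 29 mixed and 22 of the 69 over 2-fold lower. Across members, the Spearman correlation of the sperm level with the ratio of daughter cells to 24 h was 0.21, and across the 12609 genes with at least 10 CPM at 24 h it was 0.31. Genes are not independent and share libraries and depth, so both are descriptions.

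**Figure D5:**
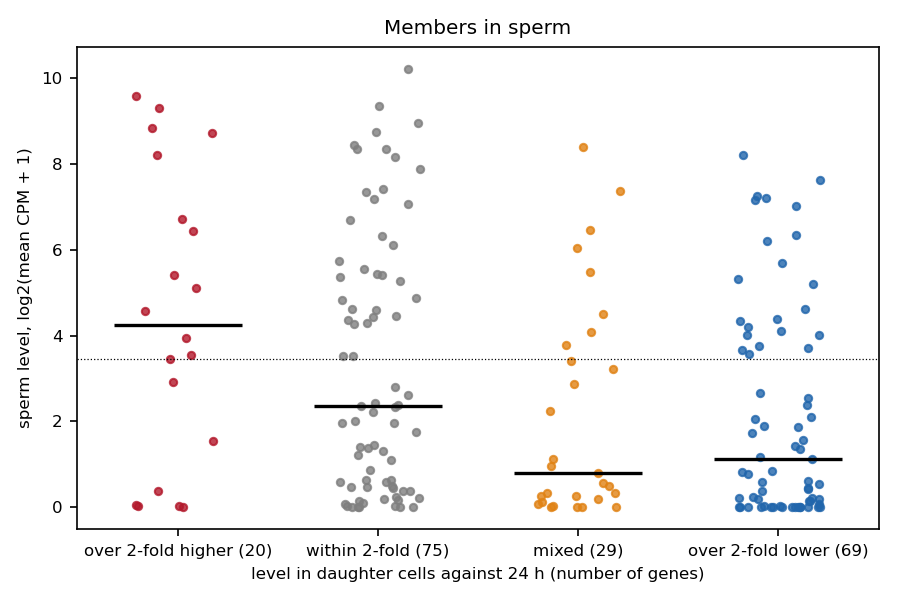
Mean level of each member in sperm, as log2(mean CPM + 1), grouped by level in the daughter cells relative to 24 h; bars are medians, the dotted line is 10 CPM and the sideways spread of points has no meaning. Each group spans from near 0 to over 8 on this scale, and the share above 10 CPM is 12 of 20, 33 of 75, 8 of 29 and 22 of 69 from left to right.

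To place the members among other cell division genes, lists of cyclins, checkpoint, kinetochore, cohesin, kinesin, tubulin, histone, DNA replication and E2F-type genes were taken from reference names. Of their 75 gene IDs 10 were members, beside a share of 0.489% over all gene IDs, and 73 passed the filter on low counts. The lists were chosen with earlier results of these data known, so nothing is read from the count of members. Between 12 h and 24 h, 15 of the 73 were called higher at 24 h in edgeR's test and 0 lower, while 1.04% of all tested genes were called in either direction. Of the 15, 5 were members (mad2, GRMZM2G133802, tub6, TUB1 and KIN8) and 4 were the genes set aside (cyc1, KIN6, KIN13 and kin11). These 9 passed limits that used the same contrast, so their calls are no separate result. The other 6 were cyc3, cyclin4, cyclin8, the centromere gene CenpcA, the ribonucleotide reductase gene RNRL2 and the tubulin gene TUB8 (GRMZM2G472945). This TUB8 is a different gene ID from the member GRMZM2G133802, which also carries the name tub8. Of the 6, cyc3 was also listed to be set aside but had not passed the limits. It and the cyclin genes cyclin4 and cyclin8 failed on their egg means alone.

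The count depended on single libraries. It was 4 without the first 12 h library, 7 without the third and 7 without the first 24 h library. By group, 4 of 13 tubulin genes and 4 of 11 kinesin genes were called, of which 3 and 4 had passed the limits of the rule, and 1 of 14 DNA replication genes and 0 of 10 histone genes. The 3 histone members thus did not pass the test between 12 h and 24 h in spite of ratios from 3.73 to 5.34, with 12 h and 24 h libraries that spread widely.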

How the data were processed

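Polyadenylated RNA was sequenced in 18 libraries, 3 in each of 6 groups. The authors deposited raw counts per gene ID, not normalised. The submitters' processing notes name the build B73 RefGen_v3 and the tools STAR 2.5.2a, featureCounts, Trimmomatic 0.32, cutadapt 1.13, FastQC and DESeq2. Strandedness of counting and handling of multi-mapping reads: not given in the sources used here. Of the 39475 IDs, 18908 matched a gene of the reference assembly (Zm-B73-REFERENCE-NAM-5.0). It differs from the build of the counts, so no coordinates are given.

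Members and gene lists were chosen with earlier results of these data known. Levels are CPM over the library total, with means ± SD over 3 libraries. The test was edgeR 4.0.16 under R 4.3.3 (TMM, filterByExpr, robust quasi-likelihood fit, Benjamini-Hochberg over all tested genes, called at an adjusted p under 0.05), in 15 libraries for apical against basal and 24 h against 12 h, and in 18 for sperm against the mean of both daughter cells. The SE of a log2 fold change is approximate: its size divided by the square root of F. The fits were tested on simulated data first. DESeq2 1.42.0, other scalings, no filter on low counts, other pseudocounts than 1, a replicate block and leaving out each library were the alternatives.

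Named are the 10 members ranked highest, those with an informative reference name, members called between apical and basal cells (there were 0), the 4 with the highest and the 4 with the lowest ratio of daughter cells to 24 h, the 5 with the highest sperm level and the genes nearest each limit. GRMZM2G158526, GRMZM2G147399 and the members with the smallest p between apical and basal cells were named after their values were seen. No pair of libraries in a group differed by as little as sampling noise. Because PCR copies carry no molecular identifiers, the counting interval and the floor account for counting error alone.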

Additional observations from a re-analysis of the deposited data

How the results depend on the processing

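Other scalings, tools and filters left the counts of members called between apical and basal cells (0 throughout), different between sperm and daughter cells (152 to 168, main 159) and lower in a daughter cell than at 24 h (128 to 147, main 141) within 1.5 times. With library size alone as the scale, 23 members were called higher in sperm, compared with 40. Members over 2-fold lower in both daughter cells numbered 69 on CPM, 37 with TMM factors and 42 with RLE size factors. Those over 2-fold higher numbered 20, and 12 to 21 when single libraries were left out. Cell division genes called higher at 24 h numbered 15, 25 with only the compared groups in the fit, 22 with DESeq2 and 4 to 13 without single libraries; the cause was not tested. The set itself held 168 members with TMM factors, 151 of them among the 193, and 181 to 196 when single libraries were left out, with 161 to 185 shared. Over 19 named members, no sperm difference changed sign in 303 alternative fits; 23 fits lost a call, in 4 genes, and 2 gained one. Replicate numbers paired apical and basal libraries in part: correlations of apical with basal deviations were 0.27, 0.30 and 0.00 for replicates 1, 2 and 3. In replicates 1 and 2 the apical library matched the basal library of its own number best, and in replicate 3 it did not. The main test was unpaired. With the replicate block, 0 members were called between apical and basal cells, 158 between sperm and daughter cells, and 12 cell division genes between 12 h and 24 h. With 3 libraries per group from at most 20 cells other than sperm, members near 1 CPM in egg and at 12 h carry wide error.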

Other observations

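Members were counted in lists of gene families outside cell division, beside a share of 0.489% over all gene IDs. Of 302 gene IDs in the list of transcription factors 1 was a member, and of 36 cell wall genes, 83 auxin and cytokinin genes, 30 ribosomal protein genes and 28 heat shock and chaperone genes 0 were members. In edgeR's test of 24 h against 12 h, 1 of 193 transcription factor genes tested was called higher, and it was the member EREB171. In the cell wall list 1 of 29 was called higher. In the auxin and cytokinin, ribosomal protein and chaperone lists 0 were called in either direction. Over all tested genes 1.04% were called, so lists of this size would hold few calls at that share, and nothing particular to them is read from these counts.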
